A study of Mus musculus with 28 samples.

Results

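Interferon-stimulated genes are described here in 28 libraries of total RNA from mouse mammary epithelial lines. The 35 genes were listed by name and matched by symbol to the Ensembl identifiers of the count files, where all 35 were found among 56748 identifiers. The groups were 10 libraries of HC11 cells given DOX and DIP, 8 libraries of 4T1 cells given DOX, and 10 libraries of HC11 cells given DOX. HC11 is a clonal line derived from mammary gland of BALB/c mice and is labelled untransformed, and 4T1 is a line from a mammary tumour of a BALB/c substrain and is labelled cancer. All libraries share DOX. The labels spell out neither DOX nor DIP and name no construct, clone, culture or replicate; in work with HC11, DIP usually stands for dexamethasone, insulin and prolactin, the hormones that start milk protein synthesis in these cells. The series compares gene expression between the untransformed and the cancer line, and the labels add the comparison of HC11 with and without DIP.

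Interferons are cytokines that cells release when they sense viral nucleic acid. Type I and type III interferons bind their receptors and activate the kinases JAK1 and TYK2, which phosphorylate STAT2 at the receptor. STAT2 and IRF9 are subunits of ISGF3, a transcription factor that binds the interferon-stimulated response element in the promoters of its target genes. Interferon gamma acts at a different element, the gamma-activated sequence. The genes switched on in this way encode sensors of foreign RNA, enzymes and binding proteins that block viral growth, and proteins that restrain the response itself. Many of them also have a basal level in cells that have met no virus.

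The promoters of the listed genes are shown first because they carry the element that many of them share. RefSeq promoter windows (GRCm38.p6; 300 bases, from 250 before to 50 after the transcription start) were found for 27 of the 35 genes, 31 windows in all. Dhx58, Zbp1, Oas2, Usp18, Mx1, Mx2, Parp9 and Parp14 had no entry. The core of the response element was searched as GAAA, 2 bases of any kind (NN) and GAAA again, on both strands and with overlapping matches counted. It stood in 14 of the 31 windows (45.2%), against 3.44% of all 32851 windows. The 14 genes were Stat2, Ifih1, Ddx58, Eif2ak2, Ifit1, Ifit3, Oas1a, Oas3, Isg15, Rsad2, Bst2, Gbp2, Gbp3 and Cxcl10, of which 6 had more than 1 match. The palindromic form of the gamma-activated sequence, TTCNNNGAA, stood in 7 of the 31 windows (22.6%), against 8.30% of all windows, and these were in Irf1, Ifit2, Oas1a, Eif2ak2, Bst2, Samhd1 and Ifi35. The stretches below, all upstream of the start and read 5′ to 3′ along the gene's strand, were chosen to show how the matches are arranged, in genes whose values are described below; Ifit1 and Ifit3 among them were called in neither comparison. Capitals mark matches to the core of the response element or to its reverse complement, which begins and ends with TTTC, and in Irf1 the match to TTCNNNGAA.
Isg15: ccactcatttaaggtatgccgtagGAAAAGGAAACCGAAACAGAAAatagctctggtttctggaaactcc
Ifit1: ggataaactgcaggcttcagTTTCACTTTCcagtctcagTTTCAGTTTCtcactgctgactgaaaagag
Ifit3: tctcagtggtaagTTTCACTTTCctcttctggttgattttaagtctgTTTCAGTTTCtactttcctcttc
Oas1a: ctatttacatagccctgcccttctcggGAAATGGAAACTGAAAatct
Oas3: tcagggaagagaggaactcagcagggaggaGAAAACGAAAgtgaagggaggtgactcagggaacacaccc
Rsad2: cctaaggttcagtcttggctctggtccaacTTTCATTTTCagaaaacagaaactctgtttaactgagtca
Bst2: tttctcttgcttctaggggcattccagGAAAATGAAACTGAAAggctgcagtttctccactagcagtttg
Gbp3: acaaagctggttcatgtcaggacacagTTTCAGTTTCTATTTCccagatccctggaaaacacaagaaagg
Cxcl10: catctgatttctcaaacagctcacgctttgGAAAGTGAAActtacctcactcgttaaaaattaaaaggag
Irf1: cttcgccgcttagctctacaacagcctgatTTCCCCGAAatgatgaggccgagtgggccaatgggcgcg
In Isg15 the matches overlapped in 1 run of capitals, as they did in Oas1a, Bst2 and Gbp3, whereas the pairs in Ifit1 and Ifit3 stood apart. A match is a stretch of letters and says nothing of whether a factor was bound in these cells. The stretches lie at chr4:156200851-156200920 (minus strand) for Isg15, chr19:34640765-34640833 (plus) for Ifit1, chr19:34583360-34583429 (plus) for Ifit3, chr5:120907526-120907572 (minus) for Oas1a, and chr5:120777695-120777764 (minus) for Oas3. The others lie at chr12:26456533-26456602 (minus) for Rsad2, chr8:71537560-71537629 (minus) for Bst2, chr3:142559972-142560041 (plus) for Gbp3, chr5:92349063-92349132 (minus) for Cxcl10, and chr11:53769894-53769962 (plus) for Irf1. These coordinates are those of GRCm38.p6, whereas the counts were made with GRCm39.

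**Figure D1:**
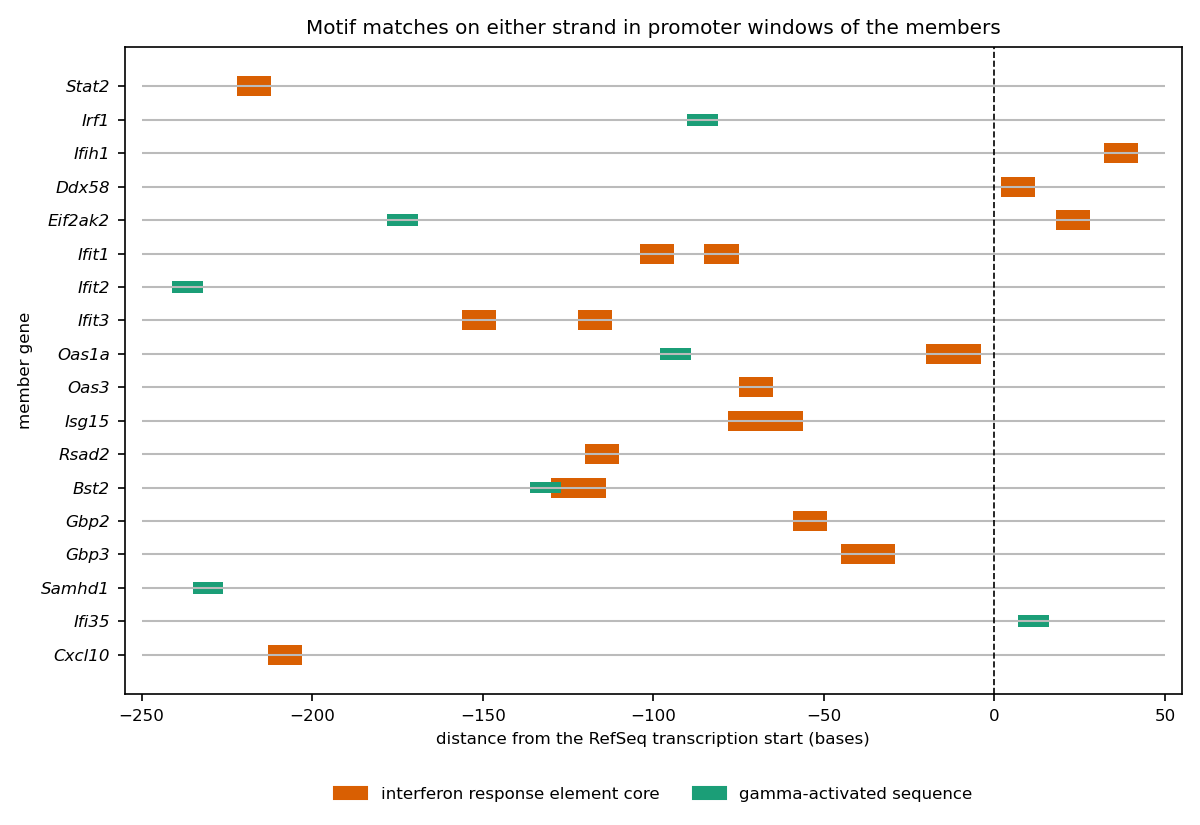
Each row is a listed gene whose RefSeq promoter window held a match, and the horizontal axis is the distance in bases from the transcription start, from 250 before to 50 after it. Marks show matches to the core of the interferon-stimulated response element and to the gamma-activated sequence TTCNNNGAA on either strand; 14 genes hold the first and 7 the second, and in 3 genes (Ddx58, Eif2ak2 and Ifih1) every match to the core begins after the start. In Bst2 the matches to the different motifs overlap.

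Libraries held between 134117581 and 222065843 counts in genes, so that 3 counts, taken as the limit that a count of 0 allows, were 0.0135 to 0.0224 CPM, counts scaled to the library's total; such limits cover counting error only. Nothing in the labels says that libraries of a group came from separate cultures, so the p-values below measure the spread between these libraries, which may be technical. A few libraries stood apart from their group, as seen in Krt5, a keratin of basal cells, and Fkbp5, a glucocorticoid receptor target, genes chosen for this after their values were seen. With DIP, libraries 8 and 10 had 22.1 and 23.4 CPM of Fkbp5, against 195 to 538 CPM in the other 8 libraries with DIP and 28.1 to 49.96 CPM without DIP. The same libraries had 56.7 and 88.5 CPM of Krt5, against 322 to 810 CPM in the other 8. In 4T1, libraries 1 and 2 had 64.8 and 95.5 CPM of Krt5, against 10.8 to 25.2 CPM in the other 6. Markers of mammary epithelium were present in every group (7 of 7 with a count), with summed levels of 430 to 2210 CPM with DIP, 2224 to 3211 CPM in 4T1 and 3383 to 8010 CPM in HC11 without DIP. Krt5 alone had 1586 to 4684 CPM in HC11 without DIP, and the single markers went both ways in the comparisons described next. With DIP, Krt18 and Krt19 were called higher and Cdh1, Krt5 and Krt14 lower. In 4T1, Krt8, Krt18 and Krt19 were called higher and Epcam, Krt5 and Krt14 lower.

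With DIP, interferon-stimulated genes of HC11 cells were more often called higher than lower. Compared with DOX alone, 19 of the 35 were called higher (adjusted p under 0.05, edgeR quasi-likelihood test with Benjamini-Hochberg adjustment over 23829 genes), where 24.5% of all genes tested were called higher, and 2 were called lower, where 21.0% of all genes were. At a change of at least 2-fold, 17 were higher and 1 lower, where 10.7% and 9.53% of all genes were. The 17 included Stat2, Irf7 and Irf9, the transcription factors of the response, 4 of the 5 genes of the oligoadenylate synthetase family, Isg15 and the enzyme that removes it from proteins, Usp18. The 2 lower genes were Samhd1, a nucleotide-degrading enzyme, and Irf1. The median log2 fold change of the 35 genes was 1.03, against 0.06 over all genes tested. The groups seldom separated completely: Irf9 was higher in every library with DIP than in any without, where 4.76% of all genes were, and Samhd1 lower, where 6.66% of all genes were. All 35 genes passed the filter on low counts in both comparisons. Without libraries 8 and 10, 22 genes were higher and 2 lower, and the 22 held all of the 19. The 2 lower genes were then Samhd1 and Oasl1 (log2 -1.88, adjusted p = 0.00111), since Irf1 missed the threshold (adjusted p = 0.0972).

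In 4T1 cells, interferon-stimulated genes differed from HC11 in both directions. Compared with HC11 given DOX, 14 of the 35 were called higher, where 34.3% of all 23875 genes tested were, and 6 were called lower, where 35.6% were. At least 2-fold, 11 were higher and 5 lower, where 12.6% and 20.1% of all genes were. The largest rises were those of Rsad2 (viperin), its neighbour Cmpk2 and the chemokine gene Cxcl10, and the lower genes included the RNA sensor gene Ddx58 (RIG-I), Usp18, Mx1 and Mx2. The median log2 fold change was 0.33, against -0.01 over all genes. Every 4T1 library was above every HC11 DOX library for Irf1, Oasl1, Rsad2, Cmpk2 and Cxcl10, where 19.5% of all genes were, and below for Ddx58, where 17.5% were. Counting changes of any size, the share called higher, 14 of 35, was near that of all genes, and the share called lower was below it. At 2-fold or more, the share called higher, 11 of 35, was above the 12.6% of all genes. The share called lower at that limit, 5 of 35, was below the 20.1% of all genes. Both comparisons use the same 10 HC11 DOX libraries, so they are not independent, and values of both are set side by side below without a test between them.

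**Figure D2:**
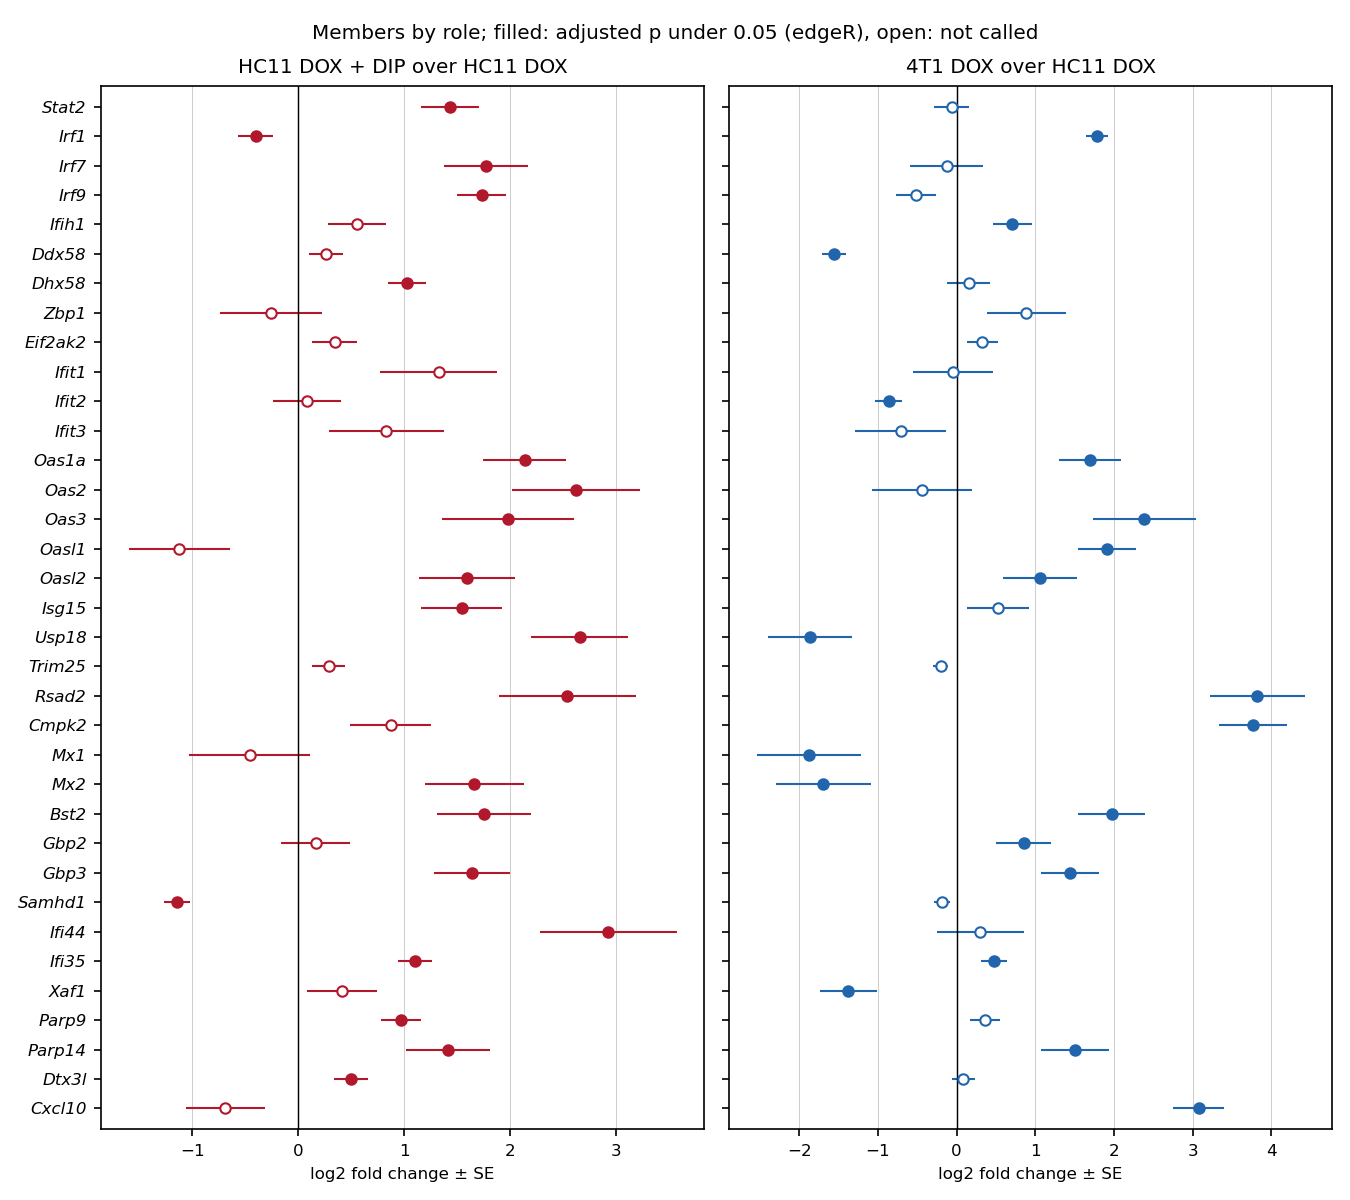
Log2 fold changes of the 35 genes (horizontal axis) with bars of 1 standard error, for HC11 DOX + DIP against HC11 DOX and for 4T1 DOX against HC11 DOX, with genes grouped by role. Filled points passed an adjusted p of 0.05; with DIP most filled points lie to the right of 0, while in 4T1 they run from -1.88 (Mx1) to 3.82 (Rsad2).

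Levels below are in CPM, with totals adjusted by TMM factors over all libraries, given as the lowest, the median and the highest library of a group, with edgeR fold changes and adjusted p-values. Libraries are called HC11 DOX + DIP or, for short, libraries with DIP, then 4T1, then HC11 DOX. Among the transcription factors, Stat2, which carries the transactivating part of ISGF3, had 16.7, 34.2 and 69.0 CPM with DIP, 10.2, 15.9 and 19.9 CPM in 4T1, and 7.55, 13.7 and 24.4 CPM in HC11 DOX. Stat2 was 2.70-fold higher with DIP (log2 fold change 1.43 ± 0.27 SE, adjusted p = 0.000186), although the lowest libraries with DIP reached into the range of HC11 DOX, and in 4T1 its log2 fold change was -0.06 ± 0.22 (adjusted p = 0.818). Irf9, the DNA-binding subunit of ISGF3, had 44.8, 71.8 and 88.0 CPM with DIP, 11.0, 13.8 and 20.5 CPM in 4T1, and 9.30, 19.96 and 37.0 CPM in HC11 DOX. It was 3.33-fold higher with DIP (log2 1.74 ± 0.23, adjusted p = 2.76e-06) with no overlap between the groups, and in 4T1 its log2 fold change was -0.52 ± 0.25 (adjusted p = 0.0708), which passed when HC11 DOX library 7, 8 or 10 was left out (adjusted p = 0.0471, 0.0256 and 0.0242). Irf7, which drives the second wave of type I interferon production, had 10.8, 17.7 and 34.7 CPM with DIP, 1.88, 4.24 and 12.5 CPM in 4T1, and 1.12, 5.05 and 12.8 CPM in HC11 DOX. Its level was 3.42-fold higher with DIP (log2 1.77 ± 0.40, adjusted p = 0.000929), the lowest libraries with DIP lying just inside the HC11 DOX range, while 4T1 spanned nearly the same range as HC11 DOX (log2 -0.13 ± 0.46, adjusted p = 0.818).

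Irf1, a factor induced strongly by interferon gamma, went the other way. It had 11.2, 21.3 and 26.3 CPM with DIP, 74.4, 96.1 and 119.9 CPM in 4T1, and 19.2, 25.4 and 40.3 CPM in HC11 DOX. In 4T1 it was 3.45-fold higher with all libraries above those of HC11 DOX (log2 1.78 ± 0.14, adjusted p = 6.55e-10). With DIP it was lower by a small amount (log2 -0.40 ± 0.16, adjusted p = 0.0484), the groups overlapped, and the call was lost in 11 of the 20 fits that left out 1 library (adjusted p up to 0.1002) and without DIP libraries 8 and 10 (adjusted p = 0.0972).

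Of the RNA and DNA sensor genes Ifih1, Ddx58, Dhx58, Zbp1 and Eif2ak2, Dhx58 alone was called with DIP, as higher. With DIP, 24.5% of all genes were called higher and 21.0% lower. In 4T1, Ifih1 was higher and Ddx58 lower, where 34.3% and 35.6% of all genes were. Ddx58, which encodes RIG-I, had 82.0, 136 and 171 CPM with DIP, 32.0, 39.6 and 44.4 CPM in 4T1, and 72.3, 108 and 157 CPM in HC11 DOX. All 4T1 libraries were below all HC11 DOX libraries, and the gene was lower in 4T1 by 1.56 ± 0.15 on the log2 scale (log2 fold change -1.56, adjusted p = 1.84e-08). With DIP its log2 fold change was 0.26 ± 0.16 (adjusted p = 0.190), and 0.37 without DIP libraries 8 and 10 (adjusted p = 0.0394). Dhx58, which encodes LGP2, a regulator of RIG-I and MDA5, had 3.84, 6.77 and 8.66 CPM with DIP, 1.33, 3.02 and 8.12 CPM in 4T1, and 2.15, 3.17 and 5.05 CPM in HC11 DOX. It was 2.04-fold higher with DIP (log2 1.03 ± 0.18, adjusted p = 7.40e-05), and in 4T1 its log2 fold change was 0.15 ± 0.27.

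Ifih1, which encodes MDA5, a sensor of long double-stranded RNA, was the 1 of these genes called higher in 4T1 (log2 0.71 ± 0.25, adjusted p = 0.0170), with medians of 15.3 CPM in 4T1 and 7.28 CPM in HC11 DOX. With DIP its median was 12.7 CPM (log2 0.56 ± 0.28, adjusted p = 0.109), which passed without HC11 DOX library 6 (adjusted p = 0.0481) or without DIP libraries 8 and 10 (adjusted p = 0.0490). Zbp1, a sensor of Z-form nucleic acid, had medians of 1.49 CPM with DIP, 3.37 CPM in 4T1 and 1.35 CPM in HC11 DOX. Its log2 fold changes were -0.26 ± 0.49 with DIP and 0.89 ± 0.50 in 4T1 (adjusted p = 0.120, and 0.0466 without HC11 DOX library 4). Eif2ak2 encodes PKR, the kinase that stops translation when it binds double-stranded RNA; its medians were 38.0 CPM with DIP, 41.9 CPM in 4T1 and 30.8 CPM in HC11 DOX, and neither log2 fold change passed (0.35 ± 0.21 with DIP and 0.33 ± 0.20 in 4T1), save in 4T1 without HC11 DOX library 4 (adjusted p = 0.0475).

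The oligoadenylate synthetases make the short 2′-5′ linked messenger that activates RNase L, and the 5 listed genes of this family include relatives described below. In each comparison 4 of the 5 were called higher, where 24.5% of all genes were with DIP and 34.3% in 4T1. The 4 were not the same: Oas1a, Oas3 and Oasl2 were called in both, Oas2 with DIP only and Oasl1 in 4T1 only. Oas1a had 10.6, 26.6 and 37.1 CPM with DIP, 10.3, 19.2 and 28.5 CPM in 4T1, and 1.41, 5.44 and 17.0 CPM in HC11 DOX. It was 4.41-fold higher with DIP (log2 2.14 ± 0.39, adjusted p = 0.000120) and 3.24-fold higher in 4T1 (log2 1.69 ± 0.40, adjusted p = 0.000796). The highest HC11 DOX library, library 1, was the one inside the range of the others: the remaining 9 were at 8.98 CPM or less. A close relative, Oas1g, ran at 0.610 to 0.802 of the Oas1a level in every library, and how the counting divided reads between similar copies is not given in the sources used here, so Oas1a is uncertain. Oas2 had 1.09, 3.61 and 10.2 CPM with DIP, 0.105, 0.479 and 1.18 CPM in 4T1, and 0.0255, 0.437 and 2.22 CPM in HC11 DOX. Oas2 was 6.18-fold higher with DIP (log2 2.63 ± 0.61, adjusted p = 0.00127), with some overlap, while 4T1 lay within the HC11 DOX range (log2 -0.44 ± 0.63, adjusted p = 0.548).

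Oas3, the next gene to Oas2 on chromosome 5, had 1.78, 2.66 and 11.95 CPM with DIP, 1.26, 4.26 and 10.1 CPM in 4T1, and 0.0255, 0.480 and 2.70 CPM in HC11 DOX. It was higher in both comparisons, 3.95-fold with DIP (log2 1.98 ± 0.62, adjusted p = 0.0127) and 5.21-fold in 4T1 (log2 2.38 ± 0.66, adjusted p = 0.00310). Under limma voom these log2 values were 2.76 with DIP and 3.17 in 4T1. Oasl2, a ubiquitin-like relative, had 6.96, 27.0 and 32.1 CPM with DIP, 8.88, 14.0 and 29.9 CPM in 4T1, and 0.849, 5.62 and 18.2 CPM in HC11 DOX. It was 3.03-fold higher with DIP (log2 1.60 ± 0.45, adjusted p = 0.00627), and 2.09-fold higher in 4T1 (log2 1.06 ± 0.47, adjusted p = 0.0491), a call that was lost in 13 of the 18 fits leaving out 1 library (adjusted p up to 0.0994). Its neighbour Oasl1, which inhibits translation of Irf7 RNA in mouse cells, had 0.140, 0.377 and 1.503 CPM with DIP, 3.39, 3.64 and 8.21 CPM in 4T1, and 0.2297, 1.11 and 2.14 CPM in HC11 DOX. Oasl1 was 3.76-fold higher in 4T1 with no overlap (log2 1.91 ± 0.36, adjusted p = 0.000102). With DIP its log2 fold change was negative, -1.12 ± 0.48 (adjusted p = 0.0609), while that of the adjacent Oasl2 was positive. On all libraries the fall of Oasl1 passed under DESeq2 (adjusted p = 0.0499), limma voom (adjusted p = 0.0370) and the edgeR fit of all 3 groups (adjusted p = 0.0299). The 2 libraries with DIP that had the most Oasl1 were libraries 8 and 10, and without them the log2 fold change was -1.88 (adjusted p = 0.00111); it also passed without HC11 DOX library 8 or 10, or DIP library 8 or 10 alone (adjusted p = 0.0461, 0.0372, 0.0171 and 0.0208).

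Isg15 encodes a ubiquitin-like protein that is attached to other proteins, and Usp18 the protease that removes it and also blocks signalling at the type I receptor. Isg15 had 11.8, 40.6 and 53.5 CPM with DIP, 9.69, 17.5 and 33.5 CPM in 4T1, and 2.94, 10.8 and 32.2 CPM in HC11 DOX. It was 2.92-fold higher with DIP (log2 1.54 ± 0.38, adjusted p = 0.00231), with overlapping groups, and in 4T1 its log2 fold change was 0.53 ± 0.39 (adjusted p = 0.238). Usp18 differed in opposite directions in the comparisons: it had 9.54, 31.5 and 41.5 CPM with DIP, 0.369, 0.999 and 3.02 CPM in 4T1, and 0.759, 3.52 and 13.1 CPM in HC11 DOX. With DIP it was 6.32-fold higher (log2 2.66 ± 0.46, adjusted p = 6.86e-05), with only the lowest libraries reaching the top of the HC11 DOX range. In 4T1 it fell by 1.87 ± 0.53 on the log2 scale (adjusted p = 0.00404), all 4T1 libraries lying below the HC11 DOX median and the lowest of them below the whole HC11 DOX range. Trim25, the ubiquitin ligase that aids RIG-I signalling, varied least among the libraries of HC11 DOX. Its medians were 95.5 CPM with DIP, 71.7 CPM in 4T1 and 75.9 CPM in HC11 DOX, and its log2 fold changes were 0.29 ± 0.16 with DIP (adjusted p = 0.145, and 0.0481 without DIP library 1) and -0.20 ± 0.09 in 4T1 (adjusted p = 0.0611). The call in 4T1 passed in 7 of the 18 fits that left out 1 library, the lowest adjusted p being 0.0174 without HC11 DOX library 10.

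**Figure D3:**
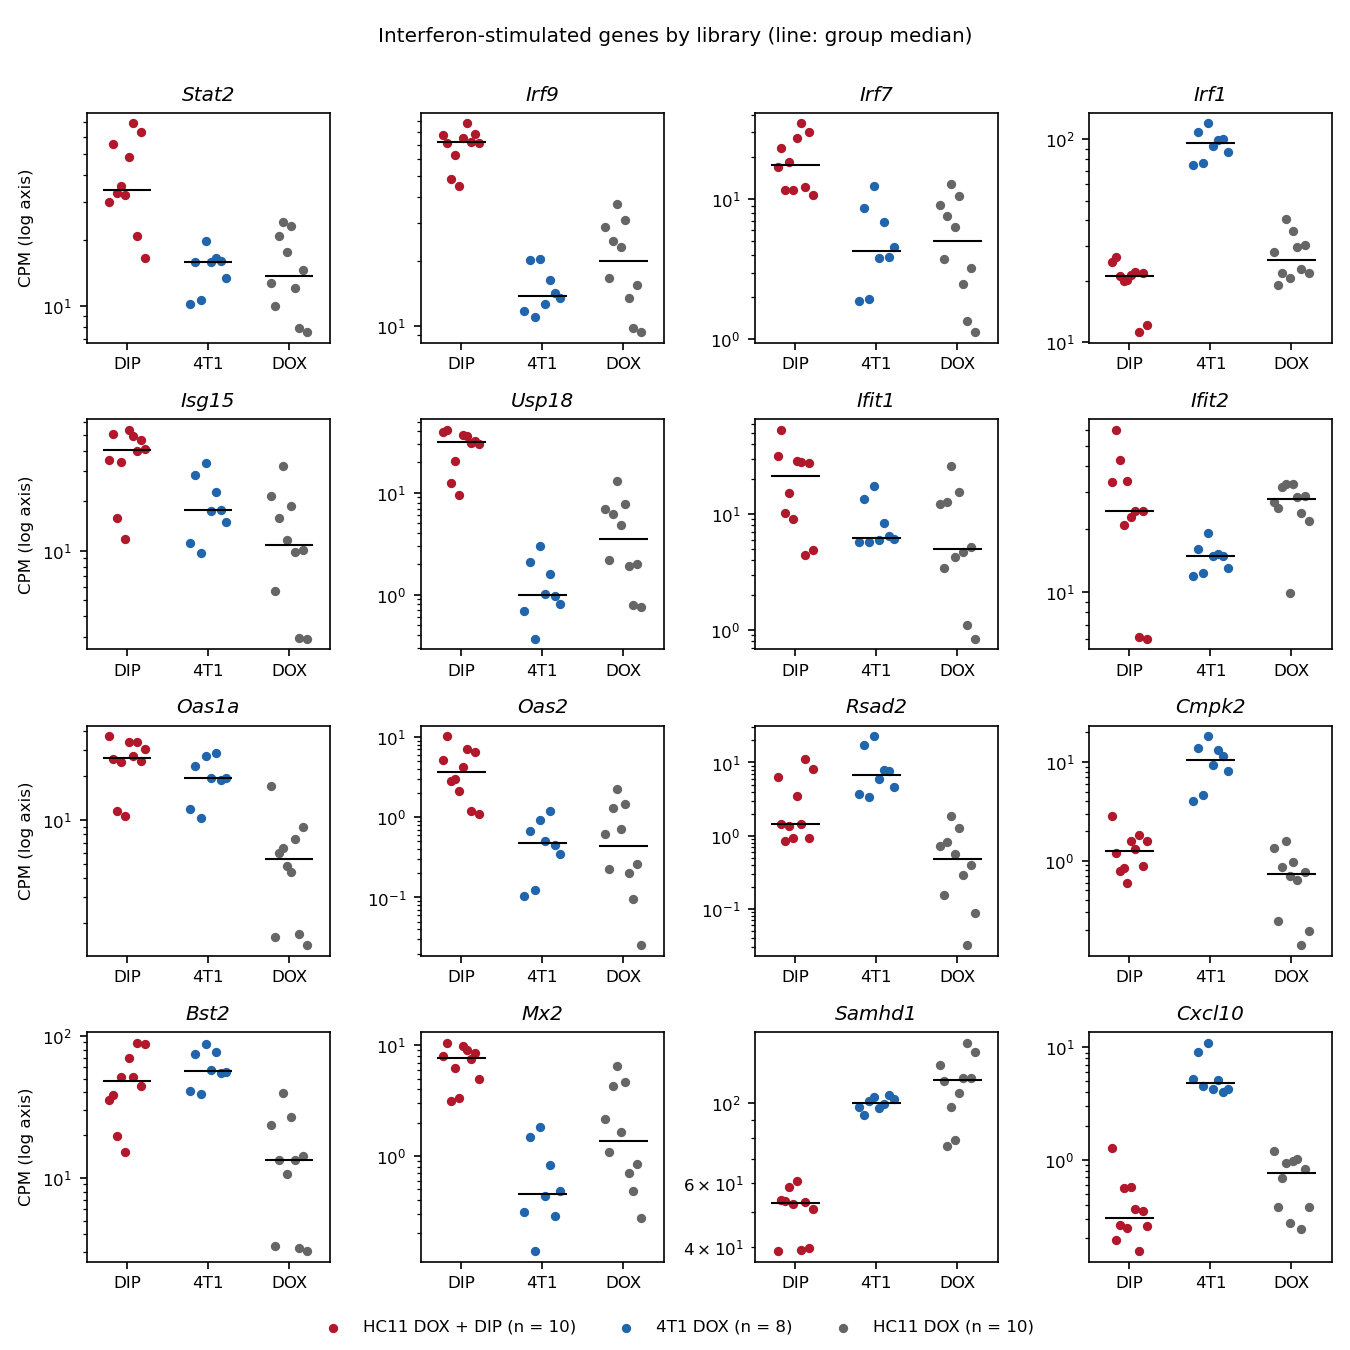
CPM in each library (logarithmic vertical axis) of 16 of the 35 genes, with HC11 DOX + DIP left, 4T1 DOX in the middle and HC11 DOX right; each point is a library and the bar is the group median. Irf9 is higher in every library with DIP than in HC11 DOX, Samhd1 lower in every one, and Usp18 has its lowest values in 4T1.

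The IFIT genes, whose products bind viral RNA that lacks the marks of host caps, had no call with DIP in the reported edgeR fit. In that fit 24.5% of all genes were called higher and 21.0% lower. Ifit1 had 4.42, 21.5 and 53.5 CPM with DIP, 5.71, 6.26 and 17.4 CPM in 4T1, and 0.842, 4.96 and 26.0 CPM in HC11 DOX. Its log2 fold change with DIP was 1.33 ± 0.55 (adjusted p = 0.0548) and the groups overlapped widely. On all libraries Ifit1 passed under DESeq2 (adjusted p = 0.0278), limma voom (adjusted p = 0.0306) and the edgeR fit of all 3 groups (adjusted p = 0.0317). It also passed in 5 of the 20 fits that left out 1 library, those without HC11 DOX library 4 or 6 or DIP library 5, 8 or 10 (adjusted p between 0.0162 and 0.0497), and without DIP libraries 8 and 10 together (log2 1.58, adjusted p = 0.0180). Ifit3 had medians of 7.40 CPM with DIP, 1.79 CPM in 4T1 and 2.86 CPM in HC11 DOX, with log2 fold changes of 0.83 ± 0.55 with DIP and -0.71 ± 0.58 in 4T1; its near copy Ifit3b ran at 0.451 to 1.25 of its level, so Ifit3 is uncertain too. Ifit2, next to Ifit3 on chromosome 19, had medians of 24.5 CPM with DIP, 14.9 CPM in 4T1 and 27.8 CPM in HC11 DOX. It was lower in 4T1 (log2 -0.86 ± 0.17, adjusted p = 0.000120) and near HC11 DOX with DIP (log2 0.08 ± 0.32). With DIP, libraries 8 and 10 were the lowest pair for all 3 IFIT genes.

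Among the other antiviral effectors, Rsad2 and Cmpk2 are neighbours on chromosome 12 whose products make and prepare nucleotides that end viral RNA chains. Rsad2 had 0.840, 1.45 and 11.1 CPM with DIP, 3.33, 6.76 and 22.8 CPM in 4T1, and 0.0321, 0.486 and 1.86 CPM in HC11 DOX. It was 14.1-fold higher in 4T1 with no overlap (log2 3.82 ± 0.60, adjusted p = 1.12e-05) and 5.82-fold higher with DIP (log2 2.54 ± 0.65, adjusted p = 0.00289). The highest values with DIP were those of libraries 8 and 10, and without them the log2 fold change with DIP was 1.75 (adjusted p = 0.0174). Cmpk2 had 0.599, 1.25 and 2.82 CPM with DIP, 4.04, 10.5 and 18.3 CPM in 4T1, and 0.139, 0.735 and 1.58 CPM in HC11 DOX. All 4T1 libraries were above HC11 DOX, 13.6-fold in the fit (log2 3.77 ± 0.43, adjusted p = 1.78e-07). With DIP its log2 fold change was 0.87 ± 0.38 (adjusted p = 0.0681), which passed without HC11 DOX library 1 or 4 (adjusted p = 0.0437 and 0.0291). On all libraries it passed under DESeq2 (adjusted p = 0.0476) and limma voom (adjusted p = 0.0300).

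The Mx genes encode dynamin-like GTPases that trap viral components, and Mx1 is defective in BALB/c and most inbred mice. Mx1 had 0.0841, 0.505 and 1.38 CPM with DIP, 0.0250, 0.199 and 0.661 CPM in 4T1, and 0.0429, 0.680 and 2.30 CPM in HC11 DOX. It was lower in 4T1 (log2 -1.88 ± 0.66, adjusted p = 0.0164), a call that limma voom did not give (adjusted p = 0.0979), and overlapped fully with DIP (log2 -0.46 ± 0.57). Mx2 had 3.12, 7.72 and 10.6 CPM with DIP, 0.138, 0.457 and 1.83 CPM in 4T1, and 0.274, 1.37 and 6.50 CPM in HC11 DOX. Like Usp18 it was higher with DIP (3.17-fold; log2 1.66 ± 0.47, adjusted p = 0.00612) and lower in 4T1 (log2 -1.69 ± 0.61, adjusted p = 0.0181), with overlap in both.

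Bst2, which encodes tetherin, the protein that holds budding virus at the cell surface, had 15.2, 47.7 and 89.6 CPM with DIP, 38.9, 56.4 and 87.6 CPM in 4T1, and 3.03, 13.4 and 39.6 CPM in HC11 DOX. It was higher in both comparisons, 3.37-fold with DIP (log2 1.75 ± 0.45, adjusted p = 0.00280) and 3.92-fold in 4T1 (log2 1.97 ± 0.42, adjusted p = 0.000367), and a single 4T1 library, the lowest, was below the highest of HC11 DOX. Gbp3, a guanylate-binding protein gene, had 4.45, 10.3 and 17.997 CPM with DIP, 4.36, 10.5 and 14.2 CPM in 4T1, and 0.944, 2.78 and 7.56 CPM in HC11 DOX. Gbp3 was 3.12-fold higher with DIP (log2 1.64 ± 0.36, adjusted p = 0.000808) and 2.72-fold higher in 4T1 (log2 1.44 ± 0.37, adjusted p = 0.00170). Gbp2, of the same family, had medians of 9.34 CPM with DIP, 18.7 CPM in 4T1 and 9.11 CPM in HC11 DOX. It was higher in 4T1 (log2 0.85 ± 0.36, adjusted p = 0.0392), a call lost in 11 of the 18 fits that left out 1 library (adjusted p up to 0.0808), and near HC11 DOX with DIP (log2 0.16 ± 0.32).

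Samhd1, a dNTP hydrolase that limits retroviral DNA synthesis, had 38.8, 52.9 and 60.7 CPM with DIP, 93.1, 100.4 and 105 CPM in 4T1, and 76.0, 116 and 147 CPM in HC11 DOX. It was the clearest exception with DIP: every library with DIP was below every HC11 DOX library, and it fell by 1.14 ± 0.12 on the log2 scale (adjusted p = 1.67e-07). In 4T1 its log2 fold change was -0.18 ± 0.10 (adjusted p = 0.117), which passed without HC11 DOX library 3 or 5 (adjusted p = 0.0257 and 0.0187). Ifi44 had the largest fold with DIP in the reported fit. It had 3.86, 16.9 and 68.4 CPM with DIP, 1.28, 3.92 and 8.62 CPM in 4T1, and 0.545, 2.21 and 9.08 CPM in HC11 DOX. Libraries 8, 1 and 10 had the most Ifi44 with DIP (68.4, 62.1 and 47.4 CPM). Under the alternatives other than leaving out 1 library, its log2 fold change with DIP ran from 2.40 to 3.01. Ifi44 was 7.62-fold higher with DIP (log2 2.93 ± 0.65, adjusted p = 0.000827), while 4T1 lay within the HC11 DOX range (log2 0.30 ± 0.55). Ifi35, a leucine zipper protein gene, had 33.2, 49.7 and 58.3 CPM with DIP, 23.2, 30.7 and 40.7 CPM in 4T1, and 14.9, 22.04 and 35.6 CPM in HC11 DOX, and was higher with DIP (2.15-fold; log2 1.11 ± 0.16, adjusted p = 9.22e-06) and in 4T1 (log2 0.48 ± 0.16, adjusted p = 0.0133). Xaf1, whose product opposes the caspase inhibitor XIAP, had 7.998, 23.6 and 31.7 CPM with DIP, 3.63, 5.69 and 10.8 CPM in 4T1, and 6.80, 11.8 and 42.6 CPM in HC11 DOX. It was lower in 4T1 (log2 -1.38 ± 0.36, adjusted p = 0.00214), and with DIP its log2 fold change was 0.41 ± 0.33 (adjusted p = 0.323).

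Parp14, Dtx3l and Parp9 lie next to each other on chromosome 16 and encode ADP-ribosyltransferases and the ubiquitin ligase that pairs with PARP9. All 3 were called higher with DIP, where 24.5% of all genes were. Parp14 had 15.6, 17.96 and 31.8 CPM with DIP, 12.8, 23.7 and 33.0 CPM in 4T1, and 1.87, 5.82 and 20.8 CPM in HC11 DOX, and was 2.66-fold higher with DIP (log2 1.41 ± 0.40, adjusted p = 0.00609) and 2.83-fold higher in 4T1 (log2 1.503 ± 0.43, adjusted p = 0.00426). The changes of its neighbours were smaller. Parp9 had medians of 41.4 CPM with DIP, 28.9 CPM in 4T1 and 18.5 CPM in HC11 DOX, with log2 fold changes of 0.97 ± 0.19 with DIP (adjusted p = 0.000239) and 0.36 ± 0.19 in 4T1 (adjusted p = 0.0943), the second of which passed without HC11 DOX library 4 or 6 or 4T1 library 1 (adjusted p = 0.0342, 0.0417 and 0.0399). Dtx3l had medians of 29.3 CPM with DIP, 24.4 CPM in 4T1 and 19.3 CPM in HC11 DOX, with log2 fold changes of 0.50 ± 0.16 with DIP (adjusted p = 0.0146) and 0.08 ± 0.15 in 4T1 (adjusted p = 0.626).

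Cxcl10 encodes a chemokine that attracts activated T cells. It had 0.153, 0.306 and 1.28 CPM with DIP, 4.02, 4.85 and 11.0 CPM in 4T1, and 0.241, 0.765 and 1.19 CPM in HC11 DOX. All 4T1 libraries were above all HC11 DOX libraries, and Cxcl10 was 8.42-fold higher in 4T1 (log2 3.07 ± 0.32, adjusted p = 4.81e-08). With DIP its log2 fold change was -0.69 ± 0.37 (adjusted p = 0.139), and -1.05 without DIP library 1 (adjusted p = 0.0127), the highest library of that group.

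Set against the promoter windows described above, genes with and without the core of the response element were called higher with DIP in similar shares. The 8 genes that had no window are in neither count. Of these, Dhx58, Oas2, Usp18, Mx2, Parp9 and Parp14 were higher with DIP, and Zbp1 and Mx1 were not called. In 4T1, Parp14 was higher, Usp18, Mx1 and Mx2 were lower, and the others were not called. With DIP, 7 of the 14 genes with a match were higher and 0 lower, and of the 13 genes whose window held none, 6 were higher and 2 lower, where 24.5% of all genes were higher and 21.0% lower. In 4T1, 8 of the 14 were higher and 1 (Ddx58, whose match lies after the start) lower, and of the 13, 5 were higher and 2 lower, where 34.3% of all genes were higher and 35.6% lower. Of the 7 genes with TTCNNNGAA, Irf1 and Samhd1 were lower with DIP, Ifi35, Bst2 and Oas1a were higher, and Ifit2 and Eif2ak2 were not called. Per kilobase of transcript, which allows genes to be compared, Isg15 and Bst2 had the highest medians of the 35 genes with DIP, at 53.7 and 52.9 CPM per kb, against 14.3 and 14.8 CPM per kb in HC11 DOX. Bst2 had a median of 62.5 CPM per kb in 4T1, where Isg15 had 23.2. Ddx58 and Trim25 were among the genes with the highest basal level, with medians in HC11 DOX of 15.3 and 13.2 CPM per kb.

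The 35 genes varied more between libraries of the same group than most genes did. The standard deviation of log2 level over the libraries had a median over the 35 genes of 0.631 with DIP, 0.546 in 4T1 and 0.985 in HC11 DOX, against a median over all genes tested of 0.412 with DIP, 0.225 in 4T1 and 0.319 in HC11 DOX. In HC11 DOX, 33 of the 35 were above the median of all genes, and 26 with DIP and 30 in 4T1 were. The highest library had, at the median gene, 4.05 times the level of the lowest with DIP, 2.98 times in 4T1 and 9.29 times in HC11 DOX. In HC11 DOX this ratio ran from 1.66 for Trim25 to 106 for Oas3.

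This spread was shared by many of the 35 genes in the same libraries. Libraries were ranked on the 35 genes only, and whether other genes ranked them alike was not tested. The mean of log2(CPM + 0.1) over the 35 genes ran from 2.91 (library 5) to 4.12 (library 1) with DIP, from 2.503 (library 3) to 4.05 (library 4) in 4T1, and from 1.36 (library 10) to 3.78 (library 4) in HC11 DOX. HC11 DOX library 4 was the highest of its group for 25 of the 35 genes, and library 10 the lowest for 17. In 4T1, library 4 was the highest for 25, and libraries 3 and 1 the lowest for 17 and 14. With DIP the pattern was more mixed, the most frequent being library 2, the highest for 13 genes, and library 5, the lowest for 10. Libraries 8 and 10 with DIP were the lowest pair for 9 genes (Stat2, Irf1, Ddx58, Ifit1, Ifit2, Ifit3, Oas2, Mx1 and Ifi35), the highest pair for 4 (Oasl1, Rsad2, Bst2 and Xaf1) and neither for 22.

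**Figure D4:**
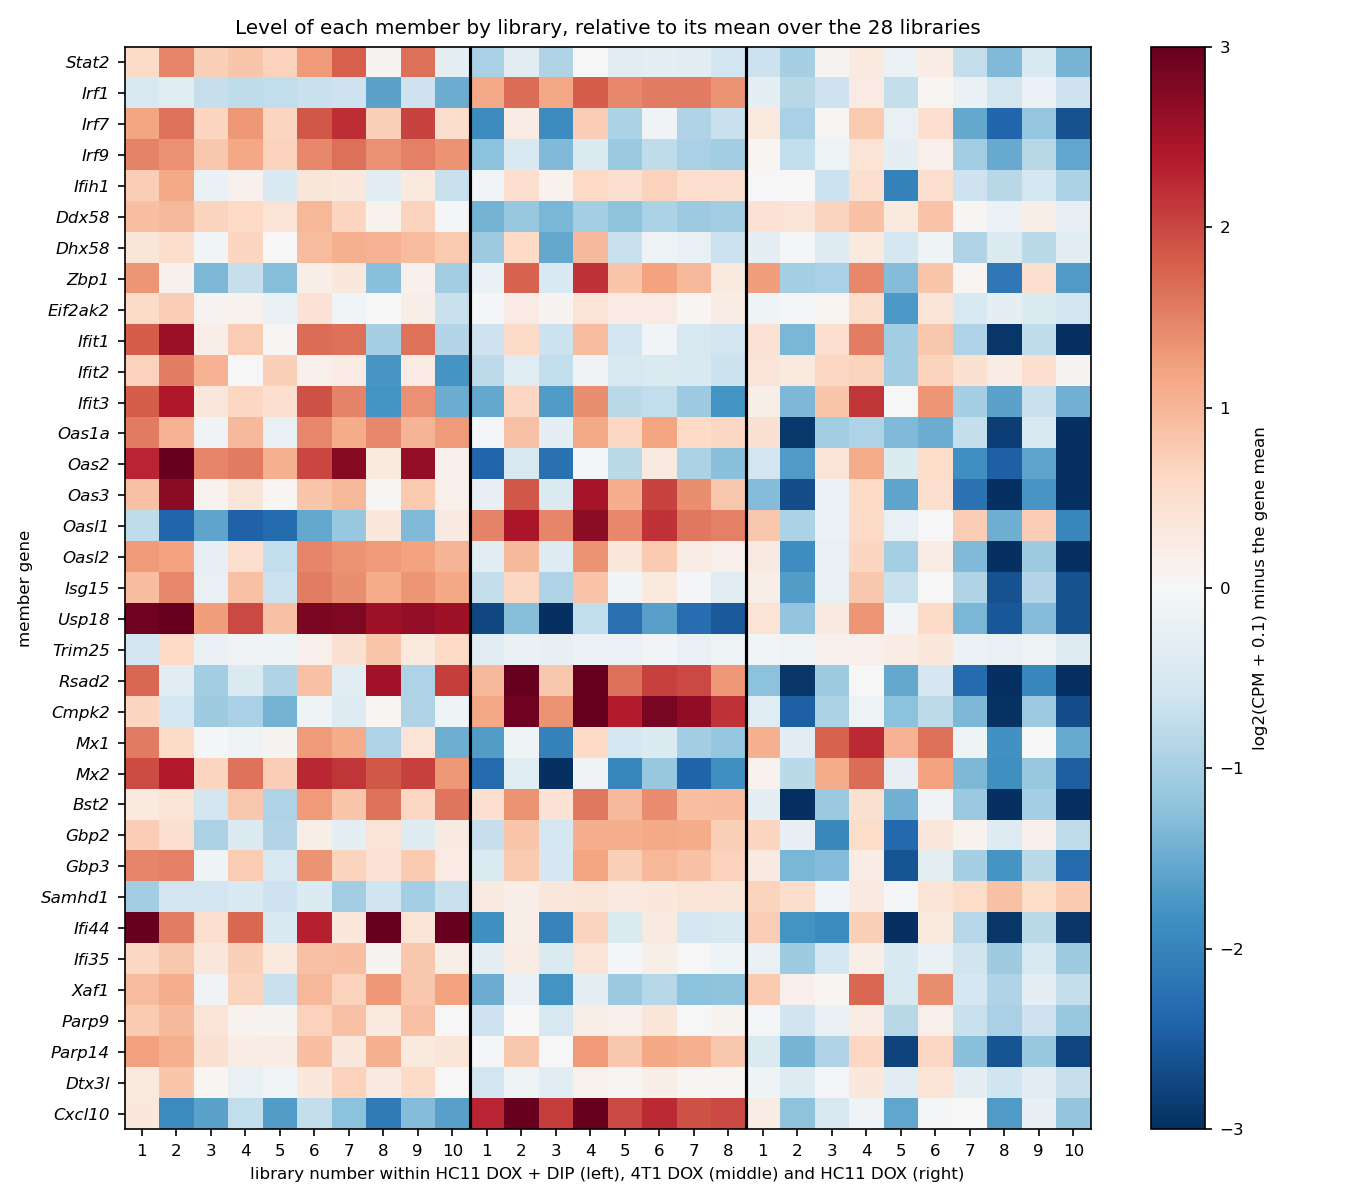
Rows are the 35 genes and columns the 28 libraries, with HC11 DOX + DIP left, 4T1 DOX in the middle and HC11 DOX right; colour is log2(CPM + 0.1) minus the gene's mean over the 28 libraries. Red is above and blue below the mean, with colours capped at 3 log2 units; HC11 DOX library 10 is the lowest of its group for 17 genes, and HC11 DOX library 4 and 4T1 library 4 are the highest of their groups for 25 each.

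Within HC11 DOX, libraries low in these genes were high in Krt5, given here as values without a test. The 4 libraries with the most Krt5, libraries 2, 5, 8 and 10 (4314, 4138, 4684 and 4409 CPM), had means over the 35 genes of 2.08, 2.22, 1.46 and 1.36, the lowest 4 of the group. The 2 libraries with the least Krt5, libraries 4 and 6 (1586 CPM each), had means of 3.78 and 3.45, the highest 2 of the group. Fkbp5 was also highest in libraries 2, 5, 8 and 10 (40.2, 46.2, 49.96 and 47.1 CPM), against 28.1 to 34.8 CPM in the other 6. These libraries were named after their values were seen, and the labels do not set them apart. Mki67, a marker of cycling cells, ran from 87.9 to 351 CPM in those 4 and from 196 to 398 CPM in the other 6. Libraries with DIP all lay below these values, their highest being 27.6 CPM (library 3) and their lowest 3.25 CPM (library 2). Among 4T1 libraries the lowest had 333 CPM (library 1) and the highest 515 CPM (library 8). Whether cycling has a part in the differences called with DIP, such as that of Samhd1, was not tested.

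**Figure D5:**
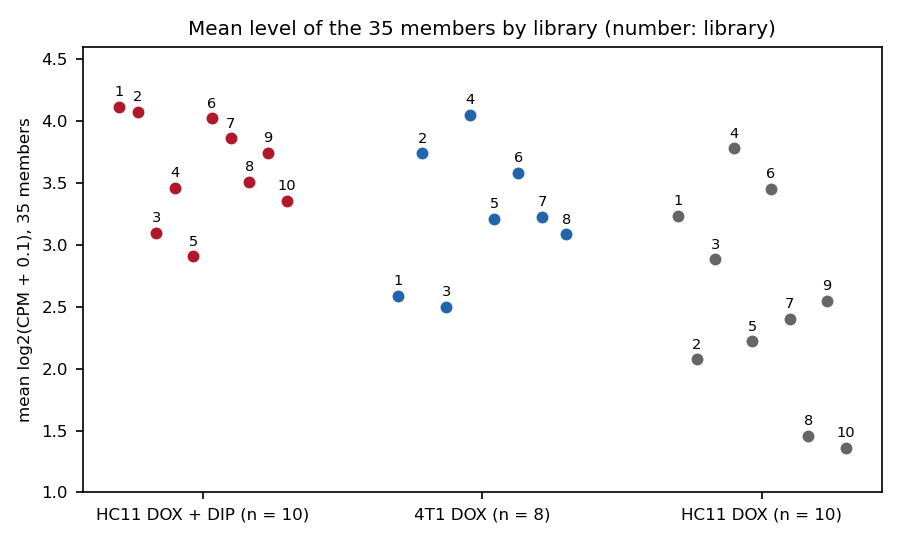
Mean of log2(CPM + 0.1) over the 35 genes (vertical axis) for each library, with HC11 DOX + DIP left, 4T1 DOX in the middle and HC11 DOX right. The values run from 2.91 to 4.12 with DIP, 2.503 to 4.05 in 4T1 and 1.36 to 3.78 in HC11 DOX, so the groups overlap.

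The pathway around these genes was read from lists of its receptors, signalling proteins, sensors, brakes and ligands. Of 6 receptor genes, 4 were called higher and 0 lower with DIP (median log2 fold change 0.37), and 4 higher and 1 lower in 4T1 (median 0.45). For this and the lists that follow, the shares over all genes were 24.5% higher and 21.0% lower with DIP, and 34.3% higher and 35.6% lower in 4T1. With DIP the largest were Ifnar2, a chain of the type I receptor (log2 0.59 ± 0.13, adjusted p = 0.000548), Ifnlr1, the type III receptor chain (0.55 ± 0.15, adjusted p = 0.00501), and Ifngr1 (0.37 ± 0.09, adjusted p = 0.00161). In 4T1 Ifnlr1 was lower in every library, with a median of 2.11 CPM in 4T1 and 11.1 CPM in HC11 DOX (log2 -2.44 ± 0.16, adjusted p = 6.70e-11), while Ifngr2 (1.37 ± 0.11) and Ifnar2 (0.76 ± 0.12) were higher.

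Among the signalling genes, Jak2, the kinase of the interferon gamma and prolactin receptors, was higher in every library with DIP (log2 1.31 ± 0.20, adjusted p = 1.28e-05), and Irf2 was higher (log2 0.49 ± 0.16, adjusted p = 0.0144). Irf8, best known from blood cells, had 4.14, 5.91 and 6.49 CPM in 4T1, against 0, 0.0120 and 0.0508 CPM in HC11 DOX. It separated the lines completely (adjusted p = 1.08e-12), and since 4 HC11 DOX libraries were at 0 no fold is given. Stat3, which also serves cytokines of the interleukin 6 family, was lower in all 4T1 libraries than in any of HC11 DOX (log2 -1.98 ± 0.12, adjusted p = 8.72e-12).

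Of the sensors and adaptors, 6 of 13 tested were higher and 2 lower with DIP, and 5 of 14 higher and 5 lower in 4T1 (median log2 fold changes 0.45 with DIP and 0.22 in 4T1); in 4T1 these shares were near the 34.3% and 35.6% of all genes. Nlrc5, the activator of MHC class I genes, was higher in every library of both comparisons, with medians of 2.93 CPM with DIP, 9.22 CPM in 4T1 and 0.459 CPM in HC11 DOX (log2 2.87 ± 0.29 with DIP, adjusted p = 5.48e-08, and 4.29 ± 0.23 in 4T1, adjusted p = 2.46e-12). Tlr3, a receptor of double-stranded RNA in endosomes, was higher with DIP (log2 1.25 ± 0.30) and lower in 4T1 (-1.78 ± 0.20). Tlr4 was higher with DIP (1.44 ± 0.22), and Ifi204, a DNA sensor gene, was higher in 4T1 (3.01 ± 0.38).

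Of 14 genes that restrain the response, 2 were higher and 5 lower with DIP, where 24.5% and 21.0% of all genes were, and 8 were higher and 5 lower in 4T1, where 34.3% and 35.6% were (median log2 fold changes -0.01 with DIP and 0.32 in 4T1). The share lower in 4T1 was near that of all genes. Socs1, an inhibitor of JAK kinases, had 0.334, 0.476 and 1.00 CPM with DIP, 5.18, 6.88 and 9.40 CPM in 4T1, and 1.01, 1.62 and 2.60 CPM in HC11 DOX. It was lower in every library with DIP (log2 -1.51 ± 0.25, adjusted p = 3.89e-05) and higher in every 4T1 library (2.02 ± 0.19, adjusted p = 7.47e-09). Socs3 was lower in both (log2 -1.60 ± 0.24 with DIP and -1.64 ± 0.13 in 4T1), Adar, which edits double-stranded RNA so that it is not sensed, was higher with DIP (0.99 ± 0.12), and Nlrx1 was lower in 4T1 (-1.72 ± 0.17). Of 3 genes for ISG15 conjugation, the activating enzyme gene Uba7 was called higher in both comparisons (log2 1.08 ± 0.43 with DIP, adjusted p = 0.0447, and 1.51 ± 0.31 in 4T1, adjusted p = 0.000207) and the others were not called.

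A list of 44 other interferon-induced genes had 25 of 43 tested called higher and 3 lower with DIP, where 24.5% and 21.0% of all genes were, and 19 of 44 higher and 5 lower in 4T1, where 34.3% and 35.6% were (median log2 fold changes 0.96 with DIP and 0.24 in 4T1). With DIP the largest were Apol9b (log2 3.57 ± 0.46), Apol9a (3.23 ± 0.44), near copies of each other that are uncertain for that reason, and Ifi27l2a (2.81 ± 0.71, adjusted p = 0.00258). The largest in 4T1 were Epsti1, Ifi47 and Sp100. Epsti1 had 2.55, 2.99 and 3.85 CPM in 4T1, against 0, 0.0180 and 0.0692 CPM in HC11 DOX, and Ifi47, a GTPase gene, had 11.0, 23.7 and 27.6 CPM in 4T1, against 0.0321, 0.245 and 0.881 CPM in HC11 DOX (log2 6.06 ± 0.50, adjusted p = 1.75e-09). Sp100, a nuclear body protein gene, had a log2 fold change of 4.56 ± 0.57 in 4T1. All 3 were higher in every 4T1 library than in any HC11 DOX library.

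The interferon genes themselves were barely counted. Of 21 ligand genes, Ifnz alone passed the filter on low counts, with medians of 1.84 CPM with DIP, 1.52 CPM in 4T1 and 1.51 CPM in HC11 DOX, and it was not called in either comparison (log2 0.02 ± 0.27 with DIP and -0.10 ± 0.29 in 4T1). No other ligand had more than 18 counts in a library. Ifnb1, the first type I interferon made after sensing, summed to 29 counts over the 10 libraries with DIP, 11 over the 8 of 4T1 and 38 over the 10 of HC11 DOX, and Ifne, an epithelial type I interferon, to 66 counts with DIP, 12 in 4T1 and 63 in HC11 DOX. Ifng, made by lymphocytes, summed to 14 counts with DIP, 0 in 4T1 and 39 in HC11 DOX. The type III genes Ifnl2 and Ifnl3 summed to 13 and 13 counts with DIP, 0 and 0 in 4T1, and 15 and 20 in HC11 DOX. With DIP, Ifnk summed to 11 counts, Ifnab to 26, Ifna13 to 11, Ifna16 to 6 and Ifna14 to 4. In 4T1, Ifnk summed to 26 counts, Ifnab to 4, Ifna13 to 17, Ifna16 to 8 and Ifna14 to 0. The HC11 DOX libraries summed to 26 counts of Ifnk, 11 of Ifnab, 18 of Ifna13, 1 of Ifna16 and 0 of Ifna14. These genes, other than Ifnz, were too low to be tested between groups, and secreted protein was not measured.

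Markers of other cell types were read in the same libraries, and in bulk RNA fewer cells of a type and less RNA per cell cannot be told apart. All 5 fibroblast markers had counts in each group, with a summed level of 19.4 to 249 CPM with DIP, 8.19 to 12.8 CPM in 4T1 and 14.2 to 41.4 CPM in HC11 DOX. Of these, Dcn, Lum and Pdgfrb were called higher with DIP (log2 3.36, 2.59 and 1.24) and lower in 4T1, and Thy1 was at 0.0544 CPM or less in every library. Of 10 leukocyte markers, 10 had a count with DIP, 7 in 4T1 and 10 in HC11 DOX. They summed to 10.1 to 27.3 CPM with DIP, 15.1 to 22.6 CPM in 4T1 and 8.32 to 12.1 CPM in HC11 DOX. Nearly all of it was Csf1r and Cd68. Cd68 was called higher with DIP, and Csf1r and Cd68 were both called higher in 4T1, without overlap. Cd3e, Adgre1 and Nkg7 were at 0 in 4T1. The defining marker Ptprc (CD45) was at 0.0613 CPM or less in every library. The 3 endothelial markers summed to 0.248 to 1.54 CPM with DIP, 0.103 to 0.304 CPM in 4T1 and 3.27 to 5.21 CPM in HC11 DOX, and of 2 erythroid markers Hbb-bs was at 0 throughout. The part of the fibroblast markers in the differences with DIP was not tested.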

How the data were processed

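Total RNA of the 28 libraries was extracted with TRIzol and depleted of ribosomal RNA with an NEBNext Ultra II kit, per the labels' protocols. The authors deposited whole-number read counts per gene, 1 file per library, made with fastp 0.23.2, featureCounts 2.0.1 and the mouse build GRCm39 per the submitters' processing notes. The aligner is not given in the sources used here, nor is strandedness, so reads of a gene and of an antisense gene across it may be mixed. In 28 of 28 libraries more genes had 2 counts than 1, by 1.05 to 1.26 times, and a count may not be 1 molecule. Groups came from the cell line and treatment labels, and libraries are numbered within a group as names only. No library was a copy of another: within a group, chi-square over degrees of freedom was 17.7 at the least.

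Gene symbols were looked up in GENCODE vM21 (52073 of 56748 identifiers), and promoters from RefSeq. Both comparisons were fitted over all genes with edgeR 4.0.16 under R 4.3.3 (filterByExpr, TMM, robust glmQLFit, glmQLFTest, Benjamini-Hochberg), and called at an adjusted p under 0.05. CPM was computed with TMM factors from the 28 libraries together. Alternatives were RLE and upper-quartile factors, no filter and a filter at 1 CPM, DESeq2 1.42.0, limma 3.58.1 voom, 1 fit of all 3 groups, a 2-fold limit, and leaving out libraries. The procedure was tested on simulated data in which 200 genes were changed. With DIP, 11.9% of 1.5-fold, 46.3% of 2-fold and 81.8% of 4-fold changes were called. For 4T1 these were 26.9%, 68.7% and 93.9%, and each simulation gave 4 calls among unchanged genes. Far fewer genes were changed there than were called in the data, where 24.5% were higher and 21.0% lower with DIP, and 34.3% and 35.6% in 4T1. The Benjamini-Hochberg limit depends on how many genes change, so these rates are not those of the reported comparisons. A gene that was not called may still differ between groups. The 35 genes, the gene lists and the tests were chosen with earlier results of these data known. All 35 genes are named; full library values are given for those called at 2-fold or more in either comparison and for Stat2, Irf1, Irf7 and Irf9, and from each pathway list at most the 3 called genes with the largest change, plus every ligand gene with 3 counts or more in a library. Some genes of the signalling list, and the counts over that list, are not reported here.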

Additional observations from a re-analysis of the deposited data

Results flagged for a closer look

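In 6 of 105 sets of values (35 genes in 3 groups), 1 library lay so far from the rest of its group that the gap to its nearest neighbour exceeded Dixon's limit for the group's range, 0.466 for 10 libraries and 0.526 for 8. Chance flags about 1 in 20 groups, which is near this share. With DIP, library 1 had 4.53 CPM of Zbp1, where the other 9 libraries had 0.628 to 2.22 CPM, and 1.28 CPM of Cxcl10, where the others had 0.153 to 0.571 CPM. Library 2 with DIP had 11.95 CPM of Oas3, where the others had 1.78 to 3.59 CPM. In HC11 DOX, library 4 had 16.0 CPM of Ifit3, where the others had 1.09 to 8.97 CPM, and library 1 had 17.0 CPM of Oas1a, where the others had 1.41 to 8.98 CPM. Library 5 of HC11 DOX was low in Ifit2, at 9.92 CPM, where the others had 21.95 to 32.9 CPM. The call of Cxcl10 with DIP changed when its lone library was left out, while those of Oas1a and Oas3 with DIP and of Ifit2 and Oas1a in 4T1 did not.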

How the results depend on the processing

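No called fold change of the 35 genes changed sign under any alternative run, whereas uncalled ones did under some: Ifit2 and Zbp1 with DIP, and Stat2, Irf7, Dhx58, Ifit1, Oas2 and Dtx3l in 4T1. With DIP, 17 to 22 genes were higher under the alternatives (19 as reported). The count of lower genes, 2 as reported, was 1 with upper-quartile factors, 1 without a filter, 1 with a filter at 1 CPM and 1 at the 2-fold limit, because Irf1 missed the threshold. In 4T1, 11 to 15 genes were higher and 5 to 8 lower (14 and 6 as reported). Leaving out 1 library gave 19 to 21 higher and 1 to 3 lower with DIP, and 12 to 17 higher and 6 to 8 lower in 4T1; 17 came without HC11 DOX library 4. Over single genes, leaving out 1 library ended the call in 11 of 700 fits with DIP (all Irf1) and 24 of 630 in 4T1 (Gbp2 and Oasl2), and added one in 14 and 17. The other alternatives ended it in 6 of 276 (Irf1) and 9 of 278 (Gbp2, Oasl2 and Mx1), and added one in 12 and 9; the cause was not tested. DESeq2 moved the median of all genes in 4T1 to -0.26, and the fit without a filter to -0.22, against a median of the 35 genes of 0.31 and 0.37. No paired analysis was made, because the labels give no replicate numbers. The HC11 samples are listed in alternating runs of 2 HC11 DOX and 2 HC11 DOX + DIP libraries. Whether libraries listed together were made together is not given. Mx1 and Oas2, under about 1 CPM in most 4T1 libraries, summed to 314 and 706 counts over the 8 libraries. Their highest 4T1 library had 26.5 and 11.2 times the level of the lowest, and the lowest for Mx1 (0.0250 CPM) was close to the limit for 3 counts. The interferon ligands other than Ifnz were too low to be tested.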
